A study of Saccharomyces cerevisiae with 6 samples.

Results

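The asparaginase genes of Saccharomyces cerevisiae, and the repeat in which most of them lie, were followed across 6 Agilent arrays of yeast grown on xylose or on glucose. The set held 8 of the 6256 genes with a probe. The ASP3 copies were ASP3-1 (YLR155C), ASP3-2 (YLR157C), ASP3-3 (YLR158C) and ASP3-4 (YLR160C). The small open reading frames YLR156W and YLR159W lie between copies, and YLR161W lies after ASP3-4. ASP1 (YDR321W) lies on another chromosome. The 8 genes were chosen by gene name, after the ASP3 copies had been seen to read very low on the second glucose array. The levels on that array, and any comparison that includes it, are therefore given as a description. The xylose group was 3 fermentation runs on 50 g/L xylose sampled at 9 h, and the glucose group 3 fermentation runs on 50 g/L glucose sampled at 3 h. Sugar and time differ together between the groups and cannot be told apart. The source label of the glucose samples reads 9 h, against 3 h in their titles and time labels, and 3 h was used. The study title speaks of picking promoters for growth on xylose. The strain, its genotype and any transgene are not given in the sources used here, and whether the runs were separate cultures is not stated, so the p-values weigh differences against the scatter of these samples alone, which may be technical.

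L-Asparaginase splits asparagine into aspartate and ammonia. ASP1 encodes the cytosolic enzyme, which is made constitutively. The ASP3 genes encode an enzyme of the cell wall and periplasm that lets the cell use external asparagine as a nitrogen source, and its production falls when richer nitrogen sources are present (nitrogen catabolite repression) and rises when nitrogen runs short. The ASP3 copies and the open reading frames beside them are nearly identical repeats next to the ribosomal DNA on chromosome XII. This locus is known from laboratory strains related to S288C and is missing from many other yeast strains.

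Each gene had 1 probe spotted 7 times, and levels are log2 signals relative to the array's 75th percentile, which was between 1407 and 3871 signal units over the 6 arrays. Between 92.3% and 95.6% of probes were well above background on each array. This means that over 0.5 of a probe's spots, outlier-flagged ones included, carried the scanner software's flag of that name. The 5907 probes that passed on at least 3 arrays entered the tests. All 8 genes described here passed this filter, and none of their spots was saturated. The second glucose array stood apart: its correlation with the other arrays over the tested probes was 0.837 to 0.872, against 0.883 to 0.993 among the other 5. It lacked the ASP3 signal and had signal for LEU2 and MET17 that no other array had. Whether its RNA came from the same strain as the rest was not tested, and this bears on every glucose mean, every difference over 6 arrays and every fold within glucose. The array was kept by its label, and the differences between sugars are given with and without it. Xylose replicates 1 and 2 lay closest, with a median absolute difference of 0.09 on the log2 scale, against 0.46 and 0.48 between each of them and xylose replicate 3. The slide with position 1 held replicates 1 and 2 of both sugars, and the slide with position 2 held replicate 3 of both.

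The ASP3 probes gave a high signal on 5 arrays and a background reading on 1. ASP3-1 had levels of 3.85, 3.92 and 3.99 in xylose replicates 1, 2 and 3, against 2.87, -8.55 and 2.97 in glucose replicates 1, 2 and 3. The processed signals behind these levels were 36279, 21244 and 50523 in xylose and 28365, 6.86 and 28788 in glucose. All 3 xylose arrays were thus above all 3 glucose arrays, and 23.5% of all genes tested separated in either direction. Within glucose the second array was far below glucose replicates 1 and 3. ASP3-2 followed with 3.79, 3.91 and 3.99 in xylose, against 2.88, -8.29 and 3.08 in glucose. ASP3-3 had 3.83, 3.91 and 3.98 in xylose, against 2.87, -8.59 and 3.05 in glucose. ASP3-4 had 3.84, 3.91 and 4.005 in xylose, against 2.86, -8.60 and 3.04 in glucose.

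The 4 ASP3 probes moved almost as 1. Between any pair of the 5 arrays without glucose replicate 2, the change read by the 4 probes differed by at most 0.17 on the log2 scale. The copies are near-identical, and the probe sequences were not used here, so the 4 probes may read the same pool of transcripts and are best counted as 1 measurement repeated rather than as 4 genes that changed.

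The open reading frames beside the ASP3 copies, whose function is not known, also read at background on glucose replicate 2 but did not follow ASP3 on the other arrays. YLR156W had levels of -1.99, -1.72 and -1.34 in xylose, against -1.50, -8.50 and -1.28 in glucose. YLR159W had -1.99, -1.78 and -1.34 in xylose, against -1.56, -8.53 and -1.22 in glucose. YLR161W had -1.94, -1.70 and -1.37 in xylose, against -1.50, -8.60 and -1.30 in glucose. With glucose replicate 2 set aside, the xylose and glucose ranges of these 3 probes overlapped. Their changes between arrays differed by at most 0.16 among the 3 probes, which, like the ASP3 probes, may read each other's transcripts.

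ASP1 behaved unlike the repeat. Its levels were -0.90, -0.98 and -0.43 in xylose, against -0.09, -0.03 and 0.35 in glucose. The xylose arrays were all below the glucose arrays, and 23.5% of all genes tested separated in either direction. Glucose replicate 2 lay between the other glucose arrays, with 7 of 7 spots well above background.

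**Figure D1:**
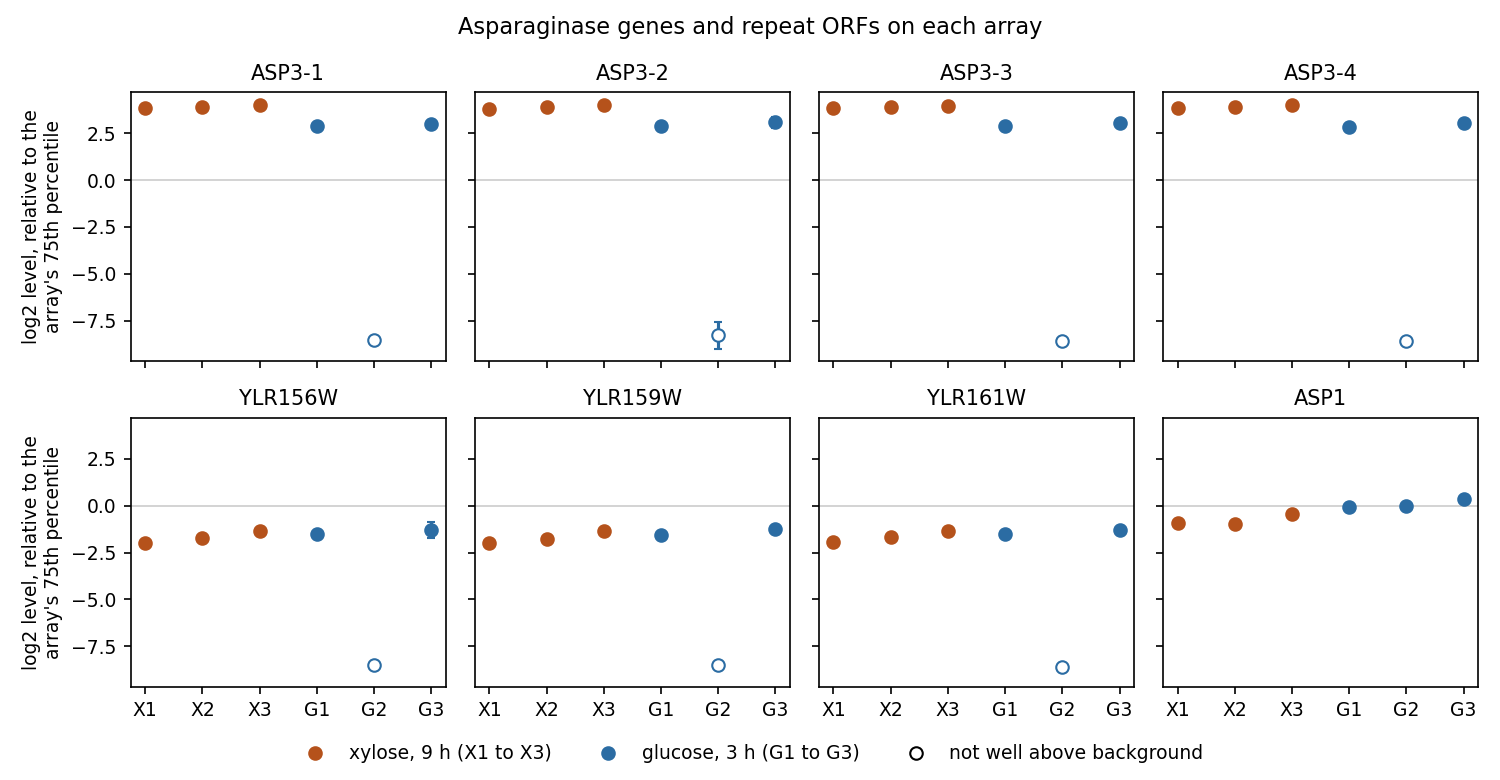
Level of each gene on each array (log2 signal relative to the array's 75th percentile), xylose replicates X1 to X3 left of glucose replicates G1 to G3; bars are the SD over the spots of the probe, and open circles mark probes not well above background. The 7 repeat probes lie between -8.60 and -8.29 on G2, and ASP1 lies at -0.03 there.

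On glucose replicate 2 the 7 repeat probes read at or close to the negative-control spots. Of their 47 spots used, 0 were well above background and 2, both of ASP3-2, were positive and significant over local background. The median raw signals of the 7 probes were 41 to 47, where the negative-control spots of the same array had a median of 41 and a central 90% between 36 and 45.6. Of the 7 medians 5 were inside that range, and those of ASP3-2 (47) and YLR161W (46.5) were above it. On the other 5 arrays every spot used of these probes, between 46 and 48 on each array, was well above background. The dimmest probe that was well above background on glucose replicate 2 had a level of -6.56, and this is the floor for what that array could have shown. Measured against that floor, the mean of glucose replicates 1 and 3 was at least 717-fold to at least 744-fold higher than glucose replicate 2 over the ASP3 probes, and at least 35.8-fold to at least 36.1-fold higher over YLR156W, YLR159W and YLR161W. The xylose mean was at least 1406-fold to at least 1428-fold above glucose replicate 2 for ASP3 and at least 29.0-fold to at least 29.7-fold for the 3 open reading frames. A bulk array cannot tell fewer cells with a transcript from less transcript per cell.

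This loss of signal was rare on the array. For each probe the gap was taken between the lowest of the other 5 arrays and glucose replicate 2. The ASP3 probes had gaps of 11.16 to 11.46, ranks 1 to 4 of 6256, and the 3 open reading frames gaps of 6.50 to 6.66, ranks 6 to 8. The median gap of all probes was -0.53, and ASP1 had -0.95. The largest gap outside the set, 6.85, belonged to YBR013C, an uncharacterised open reading frame. These ranks restate how the genes came to be chosen and carry no test.

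**Figure D2:**
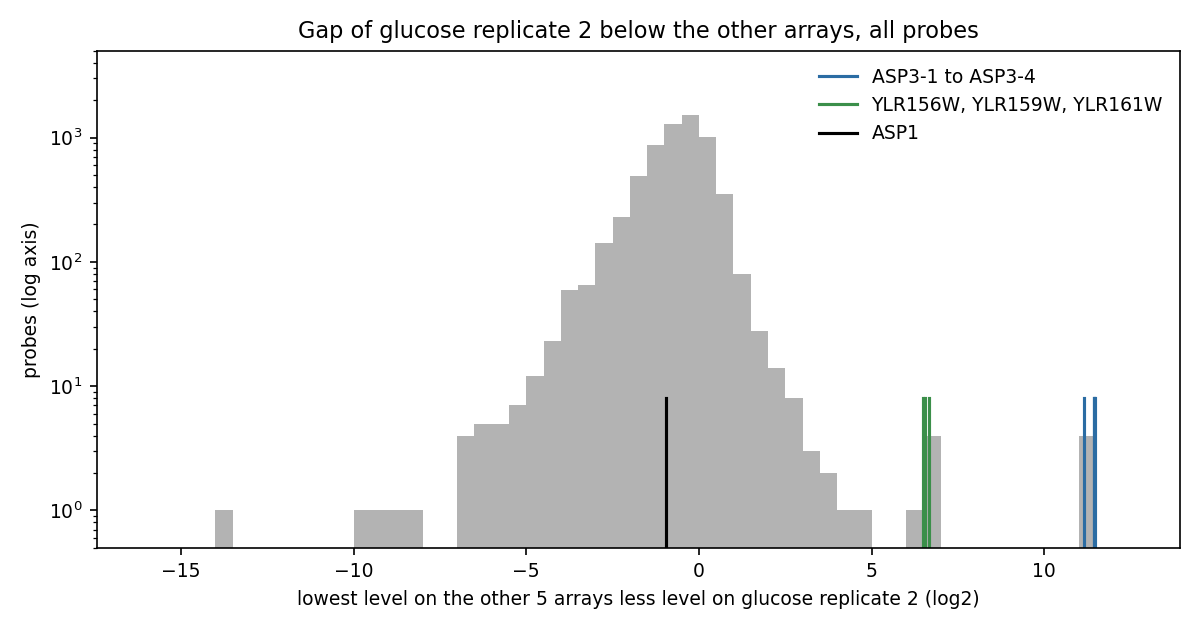
Number of probes (log axis) by the gap between the lowest level on the other 5 arrays and the level on glucose replicate 2 (log2, 6256 probes). The lines mark the ASP3 probes at 11.16 to 11.46, YLR156W, YLR159W and YLR161W at 6.50 to 6.66, and ASP1 at -0.95.

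By the scanner flags, 16 probes (0.256%) were well above background on the 5 other arrays and not on glucose replicate 2, and 7 of these 16 were the repeat probes. The other 9 were YBR013C, YBR012C, COS7, YOR203W, DAN1, YBL044W, RRT5, YJR079W and SPO19. YBR013C read -1.21, -1.32 and -0.48 in xylose, against -1.68, -8.53 and -0.64 in glucose. YBR012C read -2.33, -2.37 and -1.77 in xylose, against 0.29, -8.68 and 0.74 in glucose. COS7, a member of a subtelomeric gene family, read -3.34, -3.48 and -3.26 in xylose, against -3.48, -8.51 and -3.57 in glucose. These 3 also sat near the bottom of the scale on that array, as did YOR203W at -8.55. DAN1 read -7.85 there, YBL044W -7.77, SPO19 -7.23, YJR079W -6.78 and RRT5 -6.73. A flag lost on 1 array alone was not particular to glucose replicate 2: it was seen for 0, 48 and 8 probes in xylose replicates 1, 2 and 3, and for 14 and 10 probes in glucose replicates 1 and 3. Gaps of over 8-fold were another matter, with 16 probes (0.256%) on glucose replicate 2, against 3 on xylose replicate 2 and 0 on each of the other arrays. In the opposite direction, 38 probes were well above background on glucose replicate 2 alone, against 22, 0 and 6 on xylose replicates 1, 2 and 3 alone and 0 and 8 on glucose replicates 1 and 3 alone.

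Along chromosome XII the signal was lost over the repeat and not over its flanks. In the order of the RefSeq gene table (assembly R64, used for names and order only, since the array files name no build), the 7 repeat probes were consecutive among the 18 probes from YLR150W to YLR167W, and 7 other genes listed between YLR155C and YLR161W had no probe matched here. All 11 flanking probes were well above background on all 6 arrays. RNH203, which encodes a subunit of ribonuclease H2 and whose probe comes next before ASP3-1, read -2.63 on glucose replicate 2, against -2.54 and -2.99 on glucose replicates 1 and 3. YLR162W, whose probe comes next after YLR161W, read -1.79 on glucose replicate 2, against -3.12 and -3.50 on glucose replicates 1 and 3. The neighbours therefore differed from the other glucose arrays in either direction, between -1.86 for SHH4, a paralogue of a succinate dehydrogenase subunit, and 1.52 for YLR162W. STM1, a ribosome-associated protein gene, and RPS31, a ribosomal protein gene, were among the lower ones, at -1.74 and -1.51. Of the 11 neighbours, 5 read lower on glucose replicate 2 than on every other array and 2 read higher. The share of all probes that read lowest or highest on that array was not taken, so these counts have no background.

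**Figure D3:**
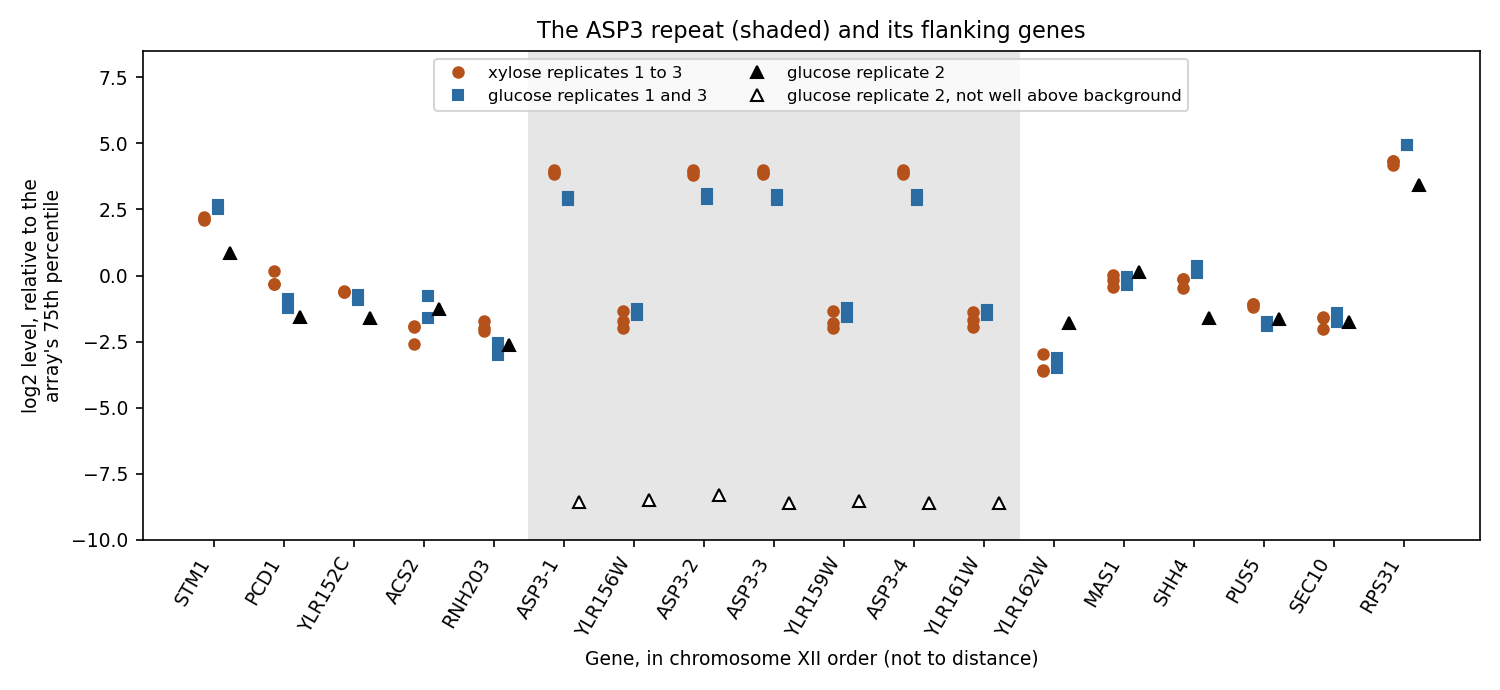
Levels (log2, relative to the array's 75th percentile) of the 18 probes around the repeat in chromosome order, not to distance, with circles for xylose, squares for glucose replicates 1 and 3, and triangles for glucose replicate 2 (open where not well above background). The shading was drawn over the span of the open triangles, which are the 7 repeat probes. The triangles of the 11 flanking probes are filled.

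Genes that mark laboratory strains and mating types were read on the same arrays, since some of them, such as LEU2 and MET17, also moved with glucose replicate 2. Of 9 laboratory-strain marker genes, 3 were higher on that array than on all others and 1 was lower. LEU2, of leucine synthesis, read 0.34 on glucose replicate 2, against -9.07 to -7.88 elsewhere, where it was not well above background on any array. MET17, of sulfur amino acid synthesis, read 4.57 against -9.06 to -8.04, again never well above background elsewhere. URA3, of uracil synthesis, read 6.35 against 0.99 to 1.82. TRP1, of tryptophan synthesis, went the other way, with -4.39 against -0.95 to 0.16, and HIS3 was not well above background on any of the 6 arrays. The summed level of the 9 marker genes (log2 of their summed relative signal) was 2.38 to 2.63 in xylose, against 6.79 on glucose replicate 2 and 2.95 and 3.29 on the other glucose arrays. The 6 a-specific mating genes were well above background on all arrays, with summed levels of 0.92 to 1.05 in xylose and of 2.67, 2.22 and 2.62 in glucose replicates 1, 2 and 3. Of the a-specific genes 1, MFA1, read higher on glucose replicate 2 than on any other array (0.84 against -1.95 to -0.20), and none read lower. Of the 4 alpha-specific genes, 3 read higher there than on any other array. MF(ALPHA)1 read -6.51 there, not well above background, against -6.52 to -4.84 elsewhere. The summed level of the 4 was -0.49 there, where SAG1 was the highest at -0.67. It was -1.71 to -1.44 in xylose and -2.05 and -1.99 on the other glucose arrays. The counts of marker and mating genes above or below all other arrays have no share over all probes beside them. They are therefore not read as a trait of these lists. The part of these differences in the readings of the repeat was not tested.

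Between the sugars, with all 6 arrays, none of the 8 genes passed limma's test at an adjusted p under 0.05, where 149 of 5907 genes did (2.52%, with 1.42% higher and 1.1% lower in xylose). Blocking the replicate numbers raised that count to 310 genes and left the 8 uncalled. At an unadjusted p under 0.05, 975 genes and 1 of the 8, ASP1, were past the threshold. The fitted log2 differences of the ASP3 probes, xylose minus glucose, were 4.67 to 4.82 with standard errors of 2.81 to 2.89 and adjusted p of 0.473 to 0.478 (limma). Those of the 3 open reading frames were 2.07 to 2.13, with standard errors of 1.79 to 1.81 and adjusted p of 0.624 to 0.632. Both sets of values are carried by glucose replicate 2, and for a probe at background a fitted difference is no measure of the fold.

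Without glucose replicate 2 the ASP3 probes rose in xylose by close to 2-fold. The log2 difference was 0.995 ± 0.17 for ASP3-1 (SE, 3 xylose and 2 glucose arrays, 95% interval 0.57 to 1.42, adjusted p = 0.0247, limma). For ASP3-2 it was 0.92 ± 0.18 (adjusted p = 0.0366), for ASP3-3 0.95 ± 0.18 (adjusted p = 0.0314) and for ASP3-4 0.97 ± 0.18 (adjusted p = 0.0303), so the fold over the 4 probes was 1.89 to 1.99. Every xylose array was above both glucose arrays, as was true in either direction of 42.1% of all genes on these 5 arrays. With 682 of 5907 genes called here (11.5%, of which 5.89% of all genes were higher and 5.65% lower in xylose), a call was not rare. Within slide 1 the difference was 0.97 to 1.02 over the 4 probes and within slide 2 it was 0.91 to 1.01.

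The ASP3 call depended on each of the 5 arrays, and the size of the difference on the scaling. The mean difference of the 4 probes stayed between 0.87 and 1.04 on leaving out each array. Leaving out any xylose or glucose array from the 5 left at most 1 of the 4 probes called: 0 without xylose replicate 1 (adjusted p 0.144 to 0.167, limma), 0 without xylose replicate 2 (0.144 to 0.177), 1 without xylose replicate 3 (0.045 to 0.062), 0 without glucose replicate 1 (0.104 to 0.140) and 0 without glucose replicate 3 (0.108 to 0.117). Centring the arrays on their spike-in probes instead of the 75th percentile put the ASP3 difference at 0.07 to 0.14 (limma adjusted p 0.904 to 0.958). In that fit limma's spread was shared by all genes, so these p-values are not on a par with the others. Spike-in centring moved the median of all genes to -0.81, against 0.04 in the percentile scaling. Both shift a whole array by a constant, so the distance of ASP3 above the median of all genes, 0.92, is the same in both by construction.

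**Figure D4:**
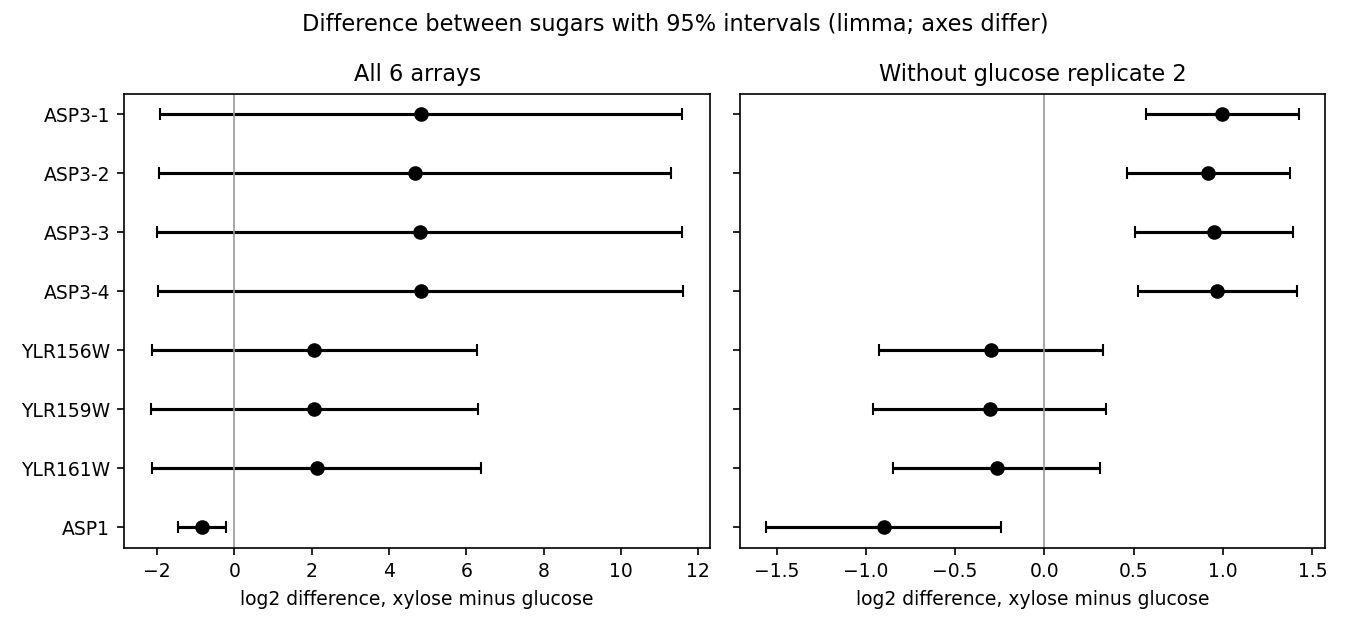
Log2 difference, xylose minus glucose, with limma's 95% intervals, for the 8 genes with all 6 arrays (left) and without glucose replicate 2 (right; the axes differ). The ASP3 points move from 4.67 to 4.82 on the left to 0.92 to 0.995 on the right, while ASP1 stays at -0.85 and -0.90.

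The 3 open reading frames of the repeat did not pass the test on the 5 arrays. Their log2 differences were -0.31 to -0.27 with standard errors of 0.23 to 0.26 and intervals that together ran from -0.96 to 0.35 (adjusted p 0.509 to 0.523, limma). Within each array the mean of the ASP3 probes was set against the mean of the 3 open reading frames, a distance that a constant shift of the array cannot change and of which only the change between arrays has a meaning. It was 5.80, 5.64 and 5.34 in xylose replicates 1, 2 and 3, against 4.39 and 4.30 in glucose replicates 1 and 3. The distance was larger in every xylose array, by 1.25 on average (2.38-fold), by 1.33 within slide 1 and by 1.04 within slide 2. It was 1.45 with quantile normalization and 0.96 with normexp background correction. No test is given, since an exact two-sided permutation test cannot go below p = 0.2 with 5 arrays.

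ASP1 read lower in xylose without passing the test over all genes. Its mean was -0.77 ± 0.30 in xylose and 0.08 ± 0.24 in glucose (SD, n = 3 each), a log2 difference of -0.85 ± 0.26 (SE, 95% interval -1.47 to -0.23, adjusted p = 0.162, limma). Its groups did not overlap, which held for 23.5% of all genes with 6 arrays. Without glucose replicate 2 the difference was -0.90 ± 0.26 (adjusted p = 0.0886), and it was -0.85 within slide 1 and -0.78 within slide 2 on those arrays. Its adjusted p (limma) was 0.0525 once replicate numbers were blocked, a setting with 310 of 5907 genes called. It was 0.0184, which is a call, once slides were blocked, a setting with 690 of 5907 genes called.

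The genes whose profile over the 6 arrays lay nearest to ASP3 were found by the root-mean-square distance between profiles, each less its own mean. The ASP3 probes lay 0.03 to 0.09 from their common mean. The nearest probe outside the repeat was YBR013C at 1.77, then YBR012C at 2.33, COS7 at 2.61, ANB1 at 2.92, EGO4 at 2.94, TRP1 at 2.97, HXT6 at 3.03, YBL044W and HSP30 at 3.10 and SIP18 at 3.11. All 10 were lowest on glucose replicate 2, and none lay close. ANB1, the translation factor gene expressed when oxygen is low, read 0.39 to 0.66 in xylose, against 3.00, -3.82 and 2.79 in glucose. HXT6, a high-affinity hexose transporter gene, read 3.70 to 4.33 in xylose, against 4.29, 0.16 and 4.45 in glucose. YBR013C was also the nearest to the 3 open reading frames, at 0.38, followed by COS7 at 0.75, YBR012C at 1.09, ANB1 at 1.13 and HXT6 at 1.15. For ASP1 the nearest were PET8, a mitochondrial S-adenosylmethionine carrier gene, at 0.02, DIC1, a mitochondrial dicarboxylate carrier gene, at 0.07, WSC2 and PHO91 at 0.08 and BPL1 at 0.09.

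The genes around asparagine were read from lists made by function: 46 genes, of which 45 were tested. With 6 arrays 3 of the 45 were called, all lower in xylose, beside 2.52% of all genes. Without glucose replicate 2 there were 9, with 7 lower and 2 higher, beside 11.5%. With the replicate number as a block on 6 arrays 5 were called, all lower: ASN2, HOM3, ADE1, ADE12 and ARG1. All 3 calls with 6 arrays were lost on leaving out any array other than glucose replicate 2. The median difference over the 45 was -0.10 with 6 arrays and -0.17 without glucose replicate 2, against 0.02 and 0.04 over all genes.

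The enzymes that make or use asparagine and aspartate held most of these calls. Of 14 genes, 2 were called lower in xylose with 6 arrays, ASN2 and HOM3, beside 1.1% of all genes, and the median was -1.08. ASN2, an asparagine synthetase gene, read 0.49, 0.52 and 0.43 in xylose, against 2.46, 1.61 and 2.42 in glucose, a log2 difference of -1.69 ± 0.29 (SE, adjusted p = 0.0346, limma). ASN1, the other asparagine synthetase gene, read -1.002, -1.15 and -1.81 in xylose, against 1.18, -0.36 and 0.61 in glucose, and its difference of -1.80 ± 0.44 did not pass (adjusted p = 0.0898). For both synthetase genes the groups did not overlap, which held for 23.5% of all genes with 6 arrays. In both, glucose replicate 2 was the glucose array nearest to xylose. HOM3, the aspartate kinase gene, had a difference of -1.98 ± 0.38 (adjusted p = 0.0464).

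Without glucose replicate 2, 6 of the 14 were called lower in xylose and none higher, with a median of -1.23. Of all genes, 5.65% were called lower and 5.89% higher on these arrays. They were HOM3 at -2.38 ± 0.21 (SE, adjusted p = 0.00503, limma), HOM2 at -2.24 ± 0.17 (0.00387), ASN1 at -2.22 ± 0.33 (0.0167), ASN2 at -1.96 ± 0.17 (0.00499), ADE1 at -1.52 ± 0.34 (0.0489) and DED81 at -1.23 ± 0.17 (0.0151). HOM2 encodes the enzyme after aspartate kinase, ADE1 an enzyme of purine synthesis and DED81 the cytosolic asparaginyl-tRNA synthetase. HOM3, HOM2 and ASN2 were still called on leaving out any of the 5 arrays (adjusted p 0.00945 to 0.0499). ASN1 and DED81 were called only without xylose replicate 3 (adjusted p up to 0.0676 and 0.105), and ADE1 in no such case (0.0515 to 0.154). HOM2 shows how far glucose replicate 2 stood from its group, with 0.43, 0.31 and 0.46 in xylose, against 2.62, 0.42 and 2.66 in glucose: its reading fell inside the xylose range. The difference of HOM2 with 6 arrays was -1.50 ± 0.59 (adjusted p = 0.267).

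By count, each of the other lists held fewer calls than the enzymes, though the lists differ in size. None of 7 transporters of asparagine and aspartate passed in either fit (medians 0.04 with 6 arrays and 0.03 without glucose replicate 2), nor did any of 4 tested regulators of nitrogen catabolite repression (medians -0.04 and -0.17), whose DAL80 was well above background on only 2 arrays and was not tested. Of 15 other nitrogen-use genes under nitrogen catabolite repression, as the ASP3 genes are, none was called with 6 arrays (median 0.15) and 2 were higher in xylose without glucose replicate 2 (median 0.44). These were CAR1, the arginase gene, at 1.30 ± 0.26 (SE, adjusted p = 0.0358, limma), and PUT1, the proline oxidase gene, at 0.89 ± 0.18 (adjusted p = 0.0381). The 2 of 15 stand beside 11.5% of all genes called on these arrays. Both calls were lost on leaving out any of the 5 arrays (adjusted p 0.0546 to 0.152 for CAR1 and 0.0644 to 0.180 for PUT1). With spike-in centring CAR1 was at 0.45 (limma adjusted p 0.694) and PUT1 at 0.04 (0.975), again from a spread shared by all genes. Of 5 genes of ammonium assimilation 1 was called in each fit, beside 2.52% of all genes with 6 arrays and 11.5% without glucose replicate 2. This was GLN1, the glutamine synthetase gene. It read 2.05, 2.03 and 1.57 in xylose, against 3.69, 2.93 and 3.55 in glucose, a difference of -1.51 ± 0.29 with 6 arrays (adjusted p = 0.0499, and 0.0584 with the replicate block) and of -1.74 ± 0.23 without glucose replicate 2 (adjusted p = 0.0129), where its call was kept on leaving out xylose replicate 3 and lost on leaving out any other array (up to 0.0686). Spike-in centring with 6 arrays lowered all differences alike, to a median of -0.67 over all genes, so the signs of the transporter and nitrogen-use medians depend on the scaling.

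**Figure D5:**
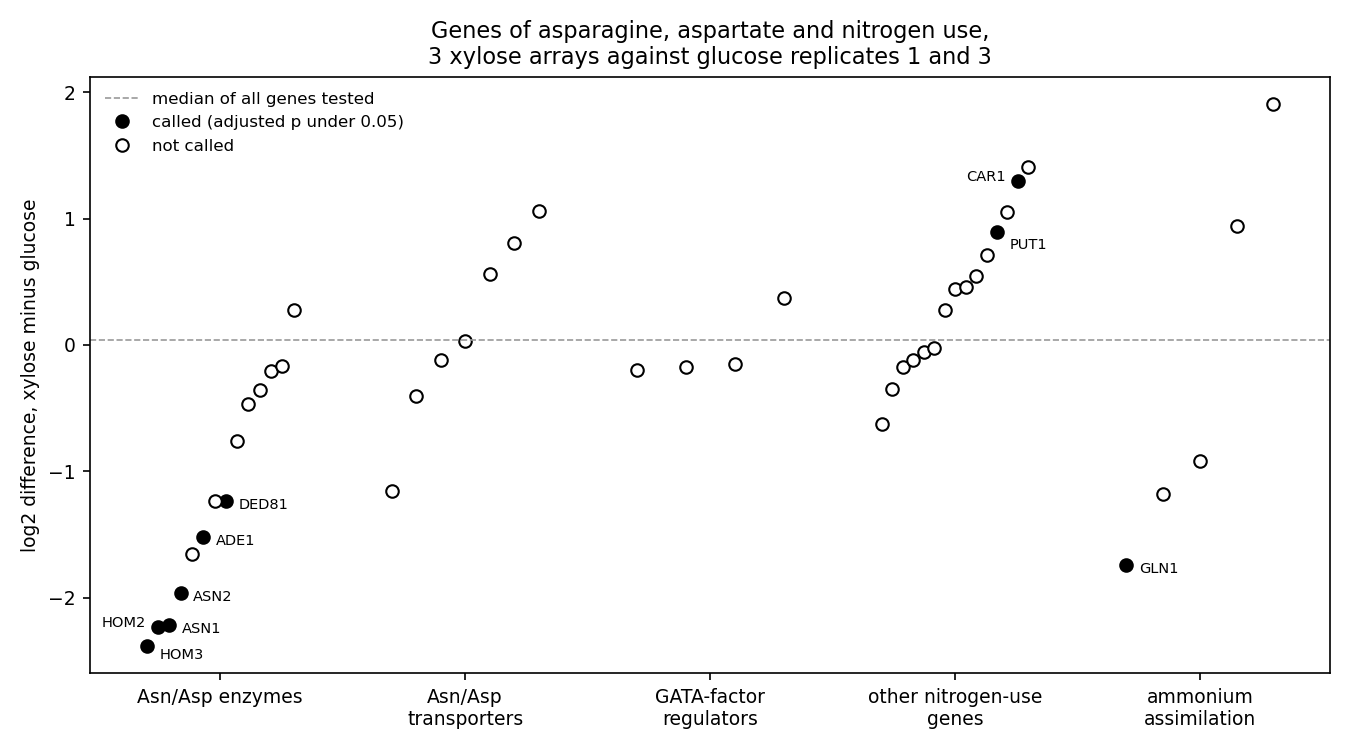
Log2 difference, xylose minus glucose, without glucose replicate 2, of the 45 tested genes by list; filled circles had a limma adjusted p under 0.05 and are named, and the dashed line is the median of all genes tested, 0.04. The 6 filled points of the enzyme list lie between -2.38 and -1.23, and the 2 of the nitrogen-use list at 0.89 and 1.30.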

How the data were processed

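Total RNA of 6 yeast samples was labelled with Cy3 and hybridised to 1-colour Agilent arrays, and the submitters' processing notes name Agilent Feature Extraction 10.1.1.1. The deposited scanner files give, per the file headers, a processed signal intensity for each spot with flags for outliers, saturation and signal well above background. Outlier-flagged spots (727 to 1722 of 43792 per array) and control spots were left out of the levels. The share of a probe's spots well above background counted its outlier-flagged spots too. For 1 probe on 1 array all 7 spots were flagged and were kept. Spot signals were put on the log2 scale, the array's 75th percentile was subtracted, and the spots of a probe were then averaged. The authors' deposited value table, in log2 units, follows these levels (r from 0.9986 to 0.9997, and 76.1% to 90.5% of probes per array within 0.01 after removing a constant, column medians -1.41 to -1.23), and it served as an alternative. The number of arrays limits the precision.

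Probes well above background on at least 3 arrays (5907 of 6256) were tested with limma 3.58.1 in R 4.3.3 by sugar, with Benjamini-Hochberg adjustment over all of them. On simulated data with 200 changed genes, 29% of changes of 1 and 75% of changes of 2 on the log2 scale were recovered, with 5 false calls, for 3 against 3 arrays. The simulated spread came from the xylose arrays and glucose replicates 1 and 3 alone. Glucose replicate 2 was left out of it, so these rates do not measure recovery with that array in the fit. Probes were matched to the RefSeq table by locus tag, which named 5756. Genes named are the 8 studied, the called genes of the function lists (at most 5 a direction) with ASN1 and ASN2, the neighbours, the nearest profiles, the probes lost on glucose replicate 2, and strain and mating genes. DED81 was the 6th of its list and is named beside its count. The genes and lists were chosen with earlier results of these data known.

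Replicate numbers occur in both groups, and same-numbered arrays deviated together from their group means (r = 0.40, 0.22 and 0.71 for numbers 1, 2 and 3), so the replicate number was used as a block in an alternative. The numbers come from the titles. Arrays of unlike number on the same slide also correlated (0.41 for xylose 2 with glucose 1, 0.25 for xylose 1 with glucose 2), while across slides r was -0.62 to -0.27, so number and slide are not separated by this check. Alternatives covered leaving out each array, replicate and slide blocks, 1 slide alone, averaging xylose replicates 1 and 2, normexp background correction (on median signals), median, quantile and spike-in (7 probes) scaling, no filter, and outlying spots kept.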

Additional observations from a re-analysis of the deposited data

How the results depend on the processing

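The counts of calls moved more than the differences did. Of all genes 149 were called with 6 arrays, 12 to 682 on leaving out each array in turn (682 without glucose replicate 2). The count was 310 under the replicate block, 690 under a slide block, 0 within slide 1 by limma (987 at an unadjusted p under 0.05), 12 with xylose replicates 1 and 2 averaged and 53 with normexp. The 3 pathway genes called became 0 to 9 on leaving out each array, 5 with the replicate block and with quantile normalization, 11 with the slide block, 1 without the filter on dim probes, and 0 within slide 1, with xylose replicates averaged and with normexp. Of the 8 genes studied 0 were called, 0 to 4 on leaving out each array, 1 (ASP1) with the slide block and 4 with spike-in centring, where limma's spread was shared by all genes and the ASP3 genes' own spread was not used. The replicate block changed no call among the 8 genes. Without glucose replicate 2, an alternative with settings added after seeing the data, 682 genes became 79 to 664 on leaving out each remaining array, 3812 with the slide block, 97 with xylose replicates averaged, 158 with spike-in centring and 133 with normexp. The 4 calls among the 8 genes became 0 to 1, then 0 with xylose replicates averaged, with spike-in centring and with normexp, and 2 with median centring. The 9 pathway calls became 3 to 9, 32 with the slide block, 3 with xylose replicates averaged and 4 with normexp. The slide block on 5 arrays leaves its residual mainly to xylose replicates 1 and 2. The 16 probes lost on glucose replicate 2 became 10 when all spots had to carry the flag on 5 arrays and none on that array. The sign turned without glucose replicate 2 for YLR156W (-0.30), YLR159W (-0.31) and YLR161W (-0.27), and on those 5 arrays for YLR156W under normexp (0.016). Their differences with 6 arrays reached 3.31, 3.34 and 3.38 without glucose replicate 3. Among the other genes studied and the pathway genes called in either fit, no difference reversed under the alternatives run. Over all 45 tested pathway genes 5 changed sign without glucose replicate 2, as did 3 of the 11 neighbours and 896 of all 5907 genes.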
